A study of Mus musculus with 4 samples.

Results

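The interferon-stimulated effector genes are the genes whose products carry out the antiviral work of an interferon response: RNA sensors, RNA-degrading and RNA-binding proteins, GTPases, and the ubiquitin-like protein ISG15 with its enzymes. A set of 43 such genes was named by symbol, leaving out the IRF and STAT transcription factors, and the 40 with at least 40 counts summed over the 4 libraries were kept, out of 23390 gene models in the deposited table. The 3 left out were Mx2 (24 counts), Ifi44 (18) and Mx1 (12). Just inside the minimum lay Ifit3 with 99 counts, Rsad2 with 105 and Zbp1 with 124.

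The series measured RNA by sequencing in cultures of bone marrow-derived macrophages from wild-type C57BL/6J mice that were driven towards osteoclasts, the multinucleated cells that resorb bone. Marrow cells had grown for 3 days in supernatant of L929 fibroblasts, a source of M-CSF equivalent to 20 ng/ml, and both groups then received 40 ng/ml RANKL, with the solvent DMSO (2 libraries) or with 10 µM BMS-582949 (2 libraries), which blocks the kinase p38α. RNA was harvested on day 4. Exposure to the compound is given as 3 days before a change of medium in the design text but as 4 days in the treatment protocol. Whether the 2 libraries of a condition stem from different animals or dishes, or from pooled marrow, is not stated, and the p-values below then reflect no more than the scatter among these 4 libraries, part of which may be technical. The treatment protocol names the compound for every sample, and groups follow the treatment label.

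Interferons act through receptors whose kinases, JAK1 and TYK2, phosphorylate STAT proteins. With IRF9 these form ISGF3, a factor that binds the interferon-stimulated response element (ISRE) in the promoters of its target genes. In osteoclast precursors, interferon-β made in response to RANKL is known to restrain osteoclast formation, and p38 is one of the kinases that RANKL activates.

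The ISRE core was looked for in the promoters of these genes, whose sequence was not read in choosing them. The genes were named as interferon-stimulated, however, and the ISRE is the element of ISGF3 targets. A high share among them is therefore in part built into the choice. RefSeq promoter windows (GRCm38.p6, 250 bases before to 50 after each start) existed for 31 of the 40 genes. The core was searched as GAAA, any 2 bases and GAAA again, on both strands, and stood in the windows of 17 of these 31 (54.8%), against 1079 of all 27025 genes with a window (3.99%) and 3.44% of all windows. Matches that ended before the start were found for 14 genes, beginning 14 to 156 bases before it, and 6 genes held more than 1 such match in a single window. The 160 bases before the start are printed 5′ to 3′ along the gene's strand, with matches in capitals, for 4 antiviral genes that rose from low levels (Isg15, Ifit1, Ifit3 and Rsad2), for Bst2 and Gbp7, and for the neighbours Oasl2 and Oasl1, which moved in opposite directions.
Isg15, chr4:156200819-156200978, minus strand: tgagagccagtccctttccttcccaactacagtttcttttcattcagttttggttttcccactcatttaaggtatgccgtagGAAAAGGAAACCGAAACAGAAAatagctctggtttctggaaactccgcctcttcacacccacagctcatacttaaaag
Ifit1, chr19:34640729-34640888, plus strand: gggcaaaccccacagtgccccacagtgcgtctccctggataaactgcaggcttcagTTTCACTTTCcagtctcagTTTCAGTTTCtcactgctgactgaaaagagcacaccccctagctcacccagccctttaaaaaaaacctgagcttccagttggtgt
Ifit3, chr19:34583369-34583528, plus strand: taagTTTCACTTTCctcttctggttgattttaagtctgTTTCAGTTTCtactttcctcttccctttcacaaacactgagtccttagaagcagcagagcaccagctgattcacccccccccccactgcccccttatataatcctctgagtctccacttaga
Rsad2, chr12:26456453-26456612, minus strand: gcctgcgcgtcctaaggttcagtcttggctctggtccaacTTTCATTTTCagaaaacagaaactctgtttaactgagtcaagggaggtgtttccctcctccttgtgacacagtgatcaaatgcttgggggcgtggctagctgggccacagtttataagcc
Bst2, chr8:71537473-71537632, minus strand: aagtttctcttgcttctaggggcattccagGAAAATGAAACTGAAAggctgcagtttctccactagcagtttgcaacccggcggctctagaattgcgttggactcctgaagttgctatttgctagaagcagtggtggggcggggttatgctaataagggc
Gbp7, chr3:142530176-142530335, plus strand: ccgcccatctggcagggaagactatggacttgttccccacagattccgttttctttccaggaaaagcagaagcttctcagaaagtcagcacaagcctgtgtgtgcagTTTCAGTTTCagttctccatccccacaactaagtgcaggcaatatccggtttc
Oasl2, chr5:114896774-114896933, plus strand: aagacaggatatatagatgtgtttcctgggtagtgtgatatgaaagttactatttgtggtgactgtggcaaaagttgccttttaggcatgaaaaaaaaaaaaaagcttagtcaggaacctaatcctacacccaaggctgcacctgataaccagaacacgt
Oasl1, chr5:114923080-114923239, plus strand: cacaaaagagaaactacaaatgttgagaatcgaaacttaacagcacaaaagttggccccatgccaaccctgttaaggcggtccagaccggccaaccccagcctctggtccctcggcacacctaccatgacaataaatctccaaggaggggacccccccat

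Isg15 held 3 overlapping matches, Ifit1, Ifit3 and Bst2 held 2 each, and Rsad2 and Gbp7 held 1. Neither Oasl2 nor Oasl1 had these letters in its window, which says nothing on other forms of the element or on sites elsewhere. A match is a run of letters and not a measured binding site.

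**Figure D1:**
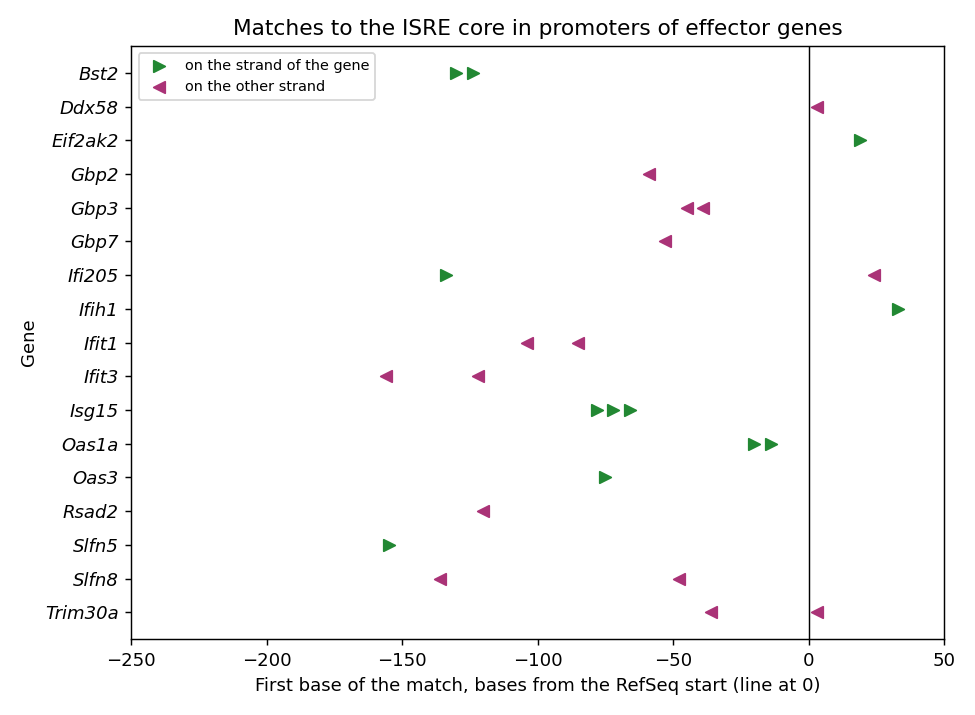
Position of each match to the ISRE core (GAAA, 2 bases, GAAA, either strand) in the promoter windows of the 17 effector genes that held it, in bases from the RefSeq start at 0. Most matches lie before the start, up to 156 bases away, and 5 genes (Ddx58, Eif2ak2, Ifih1, Ifi205 and Trim30a) have one after it.

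Total counts were 35331889 to 36178333 in the DMSO libraries and 37455168 to 39255925 in the BMS-582949 libraries. Of 13214 genes tested, 60.2% were called, so a call alone sets no gene apart. In the check of the label, all 10 osteoclast markers were present and lower with BMS-582949, among them Acp5, Oscar and Mmp9 with log2 fold changes of -3.21, -3.16 and -3.09, and their summed level went from 99133 and 103354 to 12156 and 12315 CPM, the counts of a gene per 1000000 of the library's TMM-scaled total. Of 10 macrophage markers 5 rose and 2 fell. The summed level of the 10 was 5737 and 5981 CPM under DMSO against 2926 and 3109 CPM under treatment. Most of this sum came from the 2 that fell, Cd68 (mean 3464 to 1358 CPM) and Csf1r (1977 to 883 CPM), so it mainly follows them. In such bulk cultures, fewer cells of a type and less RNA per cell cannot be told apart. Fold changes are relative to the TMM scaling.

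With BMS-582949, 33 of the 40 effector genes rose, 1 fell and 6 were not called (quasi-likelihood test of edgeR, at a p under 0.05 after Benjamini-Hochberg adjustment over all tested genes). Over all tested genes 30.5% were called higher and 29.7% lower. The effector genes were chosen with earlier results of these data known, so the contrast with all genes is a description and not an independent test. The median log2 fold change was 1.19 for the effector genes and 0.03 for all tested genes, whose middle 50% ran from -0.50 to 0.50, against 0.70 to 1.64 for the effector genes. At least a 2-fold rise was called for 25, where 9.94% of all tested genes were, and both BMS-582949 libraries lay above both DMSO libraries for 36, against 41.4% of all tested genes. Both lay below for 2, against 38.7%. All 40 passed the low-count filter, but Ifit2, Ifit3 and Rsad2 did not reach its cutoff in both DMSO libraries and passed through the BMS-582949 libraries. Without these 3, 30 of 37 rose, 1 fell and the median was 1.14. Scaled by library size only, 37 rose and 1 fell with a median of 1.56, while the median of all genes moved from 0.03 to 0.41 and the shares of tested genes called higher and lower became 51% and 17%.

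**Figure D2:**
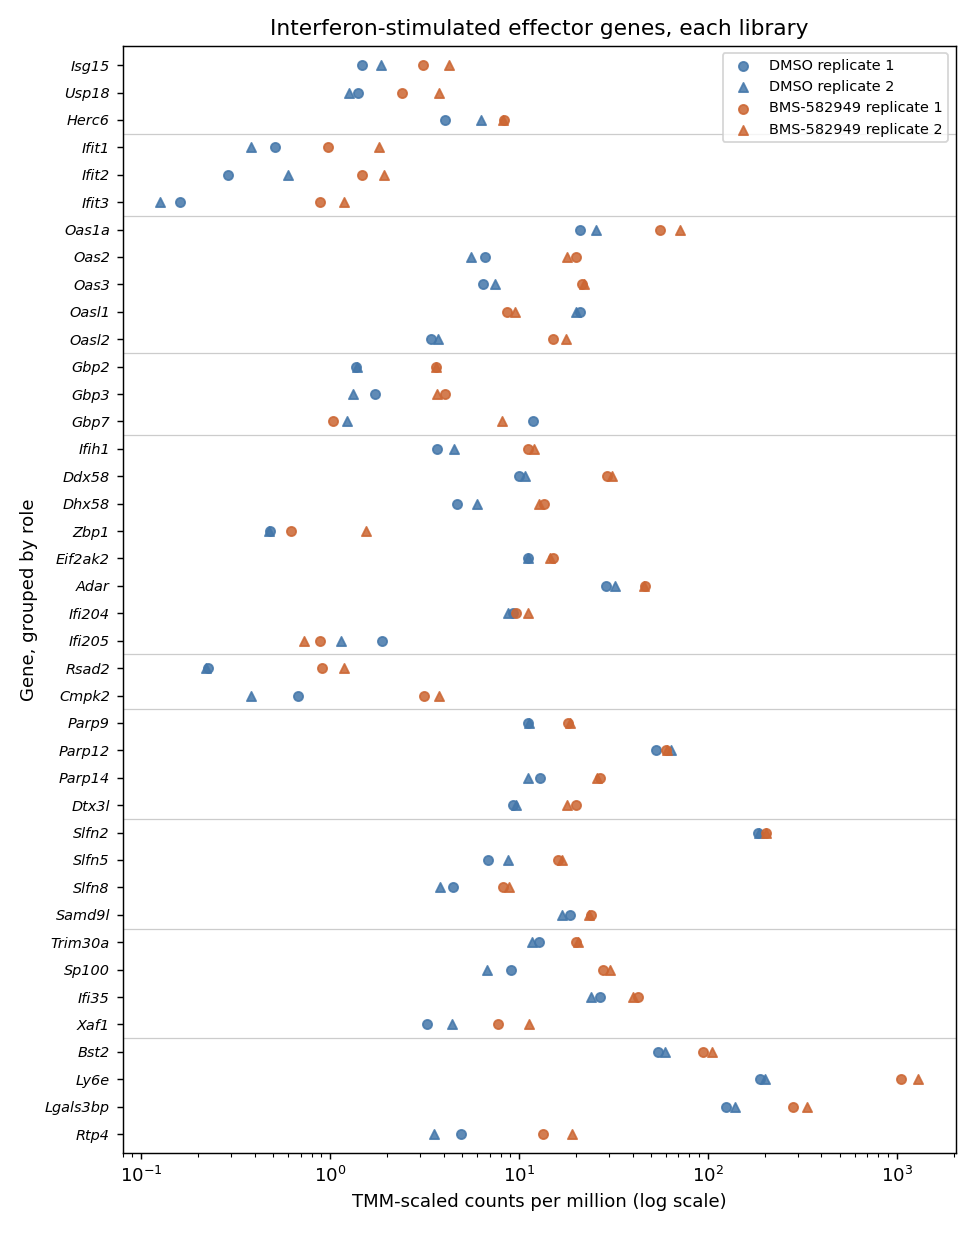
Level of each of the 40 effector genes in each library, in TMM-scaled CPM on a log axis, grouped by role (circles replicate 1, triangles replicate 2). The BMS-582949 libraries lie to the right of both DMSO libraries for 36 genes and to the left for Oasl1 and Ifi205, and Gbp7 and Parp12 overlap.

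**Figure D3:**
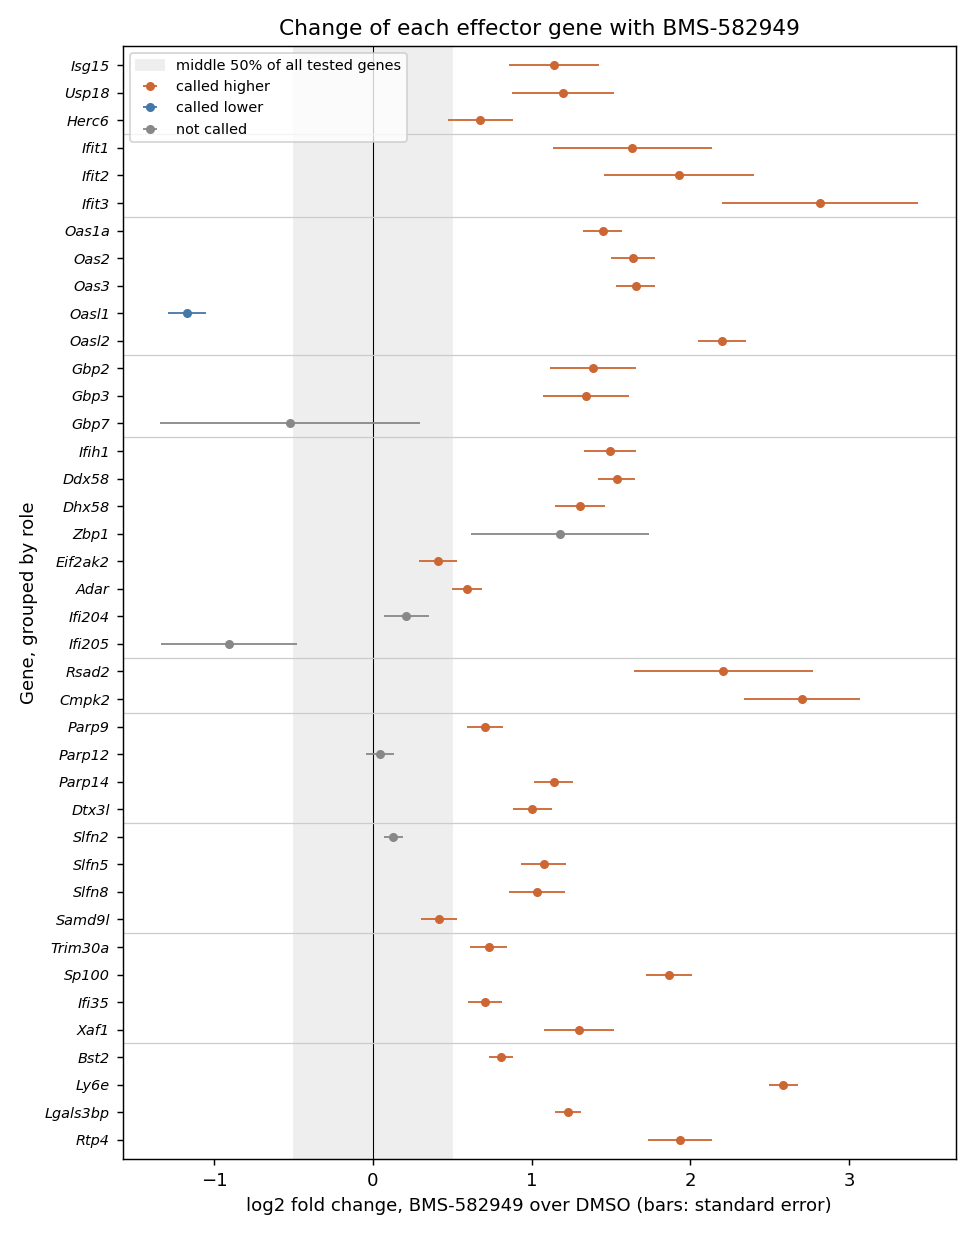
Log2 fold change of each effector gene, BMS-582949 over DMSO, with its standard error (2 libraries a group), coloured by call, over the range that holds the middle 50% of all tested genes. Called rises run from 0.41 (Eif2ak2) to 2.82 (Ifit3), and Oasl1 is the called fall at -1.17.

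The levels themselves were uneven. As RPKM, which scales CPM by the length of a gene's exons in kilobases, 7 genes stood above 10 in DMSO: Slfn2 (112 RPKM), Bst2 (63.4), Ly6e (51.7), Lgals3bp (46.4), Ifi35 (14.8), Parp12 (14.6) and Oas1a (12.4). At the other end 15 genes were under 1 RPKM in DMSO and 9 with BMS-582949, with Rsad2 lowest in DMSO at 0.0516 RPKM. With BMS-582949 Ly6e ranked first at 310 RPKM. The summed level of the 40 genes was 881 and 915 CPM in the DMSO libraries against 2200 and 2540 CPM in the BMS-582949 libraries, of which Ly6e alone made up 21.6% and 22% under DMSO against 48.0% and 50.8% under treatment. Without Ly6e, Lgals3bp and Slfn2 the sum was 381 and 388 CPM against 658 and 710 CPM. By level in DMSO, which is also the denominator of the fold, the 6 genes under 1 CPM in DMSO had a median log2 fold change of 2.07, the 19 between 1 and 10 CPM had 1.3 and the 12 between 10 and 100 CPM had 0.71, while the 3 above 100 CPM had 1.23. The order of these medians is in part built in, since the lowest class holds Ifit2, Ifit3 and Rsad2, while the low Mx2, Ifi44 and Mx1 were dropped by the count minimum.

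The ISG15 pathway rose in all 3 of its genes. Isg15 encodes a ubiquitin-like protein that is attached to other proteins in an interferon response, and its promoter window above holds the 3 overlapping ISRE matches. It measured 1.48 and 1.87 CPM under DMSO against 3.12 and 4.28 CPM under treatment, a log2 fold change of 1.14 with a standard error of 0.28 (edgeR adjusted p = 0.00411, errors after ± being standard errors here and below). The groups did not overlap, with the treated libraries the farther apart. Usp18, the protease that removes ISG15 and also holds back signalling at the interferon receptor, went from 1.42 and 1.27 to 2.41 and 3.76 CPM (1.20 ± 0.32, adjusted p = 0.00621). Its call ended without BMS-582949 replicate 2 (0.82, adjusted p = 0.101). In this and every other fit without 1 library, a group has a single library, which is assumed to vary like the other group's pair, so its p-value is not comparable with that of the full fit. Herc6, the main ligase for ISG15 in mice, went from 4.09 and 6.27 to 8.38 and 8.20 CPM (0.68 ± 0.20, adjusted p = 0.0119), and without DMSO replicate 1 it was 0.40 (adjusted p = 0.0826). The enzymes that act before Herc6, named here for that role after their values were seen, also rose, Uba7 by 0.46 ± 0.12 and Ube2l6 by 0.30 ± 0.06, and the call of Uba7 ended without DMSO replicate 1 (0.36, adjusted p = 0.0566).

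The IFIT genes, whose proteins bind foreign RNA and block its translation, all rose from very low levels. They lie on chromosome 19 between 34550694 and 34650009 (GRCm38), a stretch that also holds their relatives Ifit1bl1, Ifit3b and Ifit1bl2. The 2 DMSO libraries held 16 and 12 counts of Ifit1 and the treated libraries 44 and 77 (0.51 and 0.38 against 0.97 and 1.82 CPM), a log2 fold change of 1.63 ± 0.50 (adjusted p = 0.0135). Ifit2 was counted 9 and 19 times against 67 and 82 times (1.93 ± 0.47, adjusted p = 0.00350). Ifit3 was counted 5 and 4 times against 40 and 50 times (2.82 ± 0.61, adjusted p = 0.00166), the largest change among the 40 effector genes. All 3 had separate groups, and at such counts the size of each fold is loosely fixed. Ifit1 was not called when DMSO replicate 2 (1.43, adjusted p = 0.0598) or BMS-582949 replicate 2 (1.09, adjusted p = 0.225) was left out. Ifit3b, a near-identical copy of Ifit3, had no count in DMSO and 6 and 18 in the treated libraries, too few for the test, and no source used here says how reads were divided between the copies.

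The OAS family split. The 3 oligoadenylate synthetases, which switch on the RNA-degrading enzyme RNase L when they meet double-stranded RNA, rose together. Oas1a went from 21 and 25.5 to 55.9 and 71.1 CPM (log2 fold change 1.45 ± 0.12, adjusted p = 6.5e-07), Oas2 from 6.59 and 5.58 to 20.0 and 18 CPM (1.64 ± 0.14) and Oas3 from 6.43 and 7.45 to 21.5 and 22.2 CPM (1.65 ± 0.13). These genes share chromosome 5 between 120730333 and 120907521, and their changes ran from 1.45 to 1.65. Oas1g, a close copy of Oas1a whose reads the counting could exchange with it, also rose, by 1.6.

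Oasl1 and Oasl2 are neighbours elsewhere on chromosome 5, between 114896936 and 114937915, and their proteins carry ubiquitin-like domains. Oasl2 went from 3.44 and 3.74 to 15.2 and 17.8 CPM, a log2 fold change of 2.20 ± 0.15 (adjusted p = 8.9e-08). Oasl1, whose protein is known to hold back translation of Irf7 mRNA, went the other way, from 21 and 20.0 to 8.67 and 9.5 CPM, a change of -1.17 ± 0.12 (adjusted p = 2.9e-06). Each pair of libraries was close and the groups were far apart for both genes. In DMSO Oasl1 had the higher level per length (7.85 against 0.563 RPKM), and with BMS-582949 the levels were 3.48 and 2.58 RPKM. The fall of Oasl1 was called in each of the 12 refits, at -0.79 with library size only and between -1.11 and -1.26 when 1 library was left out. Irf7 RNA rose in the same samples, from 6.27 and 7.76 to 17.6 and 22.9 CPM (1.53 ± 0.16, adjusted p = 3.6e-06). Translation was not measured, and a link between Oasl1 and Irf7 was not tested.

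Of the GTPases, Gbp2 and Gbp3, guanylate-binding proteins that coat vacuoles of intracellular pathogens, rose alike. Gbp2 went from 1.38 and 1.39 to 3.63 and 3.64 CPM (log2 fold change 1.39 ± 0.27, adjusted p = 0.000733) and Gbp3 from 1.74 and 1.33 to 4.09 and 3.69 CPM (1.34 ± 0.27). The dynamin-like Mx1 had no count in DMSO and 8 and 4 in the treated libraries, and Mx2 had 0 and 6 against 0 and 18. Both are defective in C57BL/6 mice, and neither met the count minimum.

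Gbp7, of the same cluster on chromosome 3 (142530342 to 142638008), stood apart from the other effector genes in the spread of its replicates. It measured 11.9 and 1.24 CPM under DMSO against 1.04 and 8.15 CPM under treatment, so that the libraries of a group lay farther apart than the groups did. The log2 fold change of -0.52 ± 0.82 was not called (adjusted p = 0.610). Its direction turned with the library left out. Leaving out DMSO replicate 1 gave 1.89 and DMSO replicate 2 gave -1.38, while leaving out BMS-582949 replicate 1 gave 0.30 and BMS-582949 replicate 2 gave -2.68. These are given as values without a test, since the pair that would supply the spread is itself far apart. High values were shared by DMSO replicate 1 and BMS-582949 replicate 2. Of all tested genes, 9 had replicates at least 4-fold apart in both groups (after adding 0.5 CPM), and in 6 of these, Gbp7 included, the high library had a different number in each group. Its exons overlap the model Gm43802, which has no entry in the deposited table, over 11.3% of their length. Exons of Ifi35 (16.8%), Rtp4 (13.9%) and Herc6 (13.7%) overlap other models more, and the replicates of these genes lay closer together. A link between overlap and spread was not tested.

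**Figure D4:**
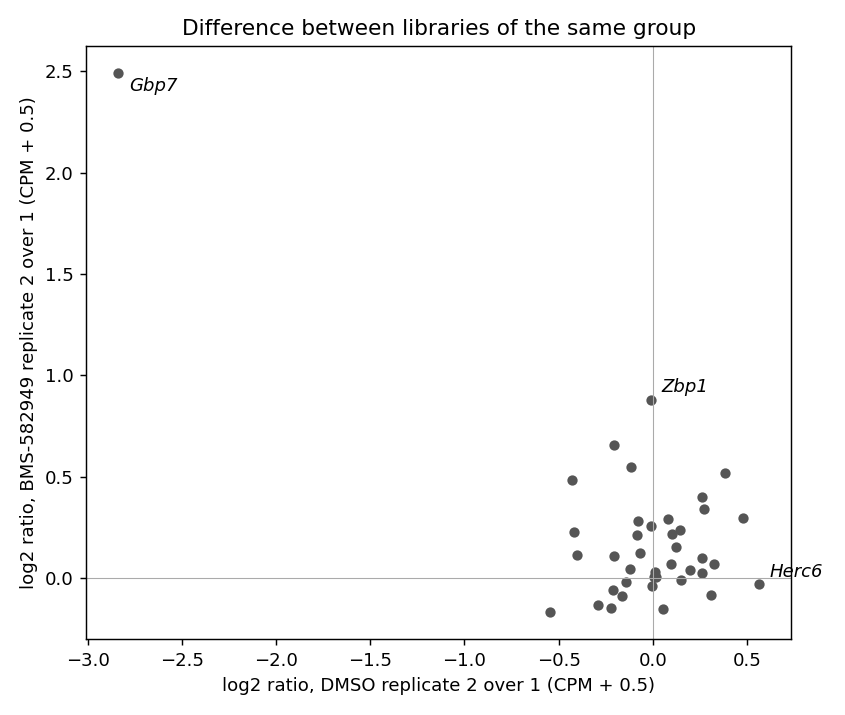
For each of the 40 effector genes, the log2 ratio of replicate 2 over replicate 1 in DMSO (horizontal) and in BMS-582949 (vertical), after adding 0.5 CPM. Gbp7 lies alone at the upper left, while the other genes stay within 0.56 (Herc6) in DMSO and 0.88 (Zbp1) in BMS-582949. The added 0.5 CPM shrinks the ratios of genes at low levels.

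Outside Gbp7 the median absolute log2 ratio of replicates, after adding 0.5 CPM, was 0.17 in DMSO and 0.13 in BMS-582949 (0.12 and 0.11 over all tested genes). The added 0.5 CPM shrinks the ratios of genes at low levels, so their replicates look closer than they were. Ifit2, at 0.29 and 0.60 CPM in DMSO, came out at 0.48. BMS-582949 replicate 2 had the higher value of its group for 29 of the 40 genes, and DMSO replicate 2 for 20.

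Of 8 genes for the sensing of nucleic acid and its control, 5 rose. The 3 RIG-I-like receptors of viral RNA rose by 1.3 to 1.54. Ddx58, which encodes RIG-I, went from 10.0 and 10.8 to 29.4 and 31.0 CPM (log2 fold change 1.54 ± 0.12, adjusted p = 2e-07). Ifih1, which encodes MDA5, went from 3.70 and 4.53 to 11.2 and 12 CPM (1.49 ± 0.17). Dhx58, which encodes the regulatory helicase LGP2, went from 4.73 and 5.99 to 13.6 and 12.9 CPM (1.3 ± 0.16). Groups were separate for each of the 3. Smaller rises were measured for Adar, an RNA-editing enzyme that keeps the cell's own RNA from being sensed (29.1 and 32.3 to 46.4 and 46.1 CPM, 0.59 ± 0.09), and for Eif2ak2, the RNA-activated kinase PKR (11.2 in each to 15.1 and 14.7 CPM, 0.41 ± 0.12). The call of Eif2ak2 ended without BMS-582949 replicate 1 (0.39, adjusted p = 0.0605). Exons of Adar overlap those of Chrnb2 over 16.8% of their length, and Chrnb2 had 99 and 101 counts under DMSO against 52 and 65 under treatment.

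Zbp1, Ifi204 and Ifi205 were not called. Zbp1, a sensor of Z-form nucleic acid, measured 0.48 in each DMSO library and 0.62 and 1.56 CPM with BMS-582949 (1.18 ± 0.56, adjusted p = 0.0894). It was called without BMS-582949 replicate 1 (1.69, adjusted p = 0.0207) and with library size only (1.55, adjusted p = 0.0290). Ifi204 and Ifi205 belong to the DNA-binding PYHIN family and lie at the ends of a stretch of chromosome 1 (173747293 to 174031810). Ifi204 measured 9.30 and 8.75 against 9.64 and 11.2 CPM (0.21 ± 0.14, adjusted p = 0.226), and Ifi205 1.90 and 1.14 against 0.884 and 0.733 CPM (-0.91 ± 0.43, adjusted p = 0.0858). Ifi204 was called higher with library size only (0.59, adjusted p = 0.00311). Some other PYHIN genes between them were called. Mndal went from 4.54 and 4.72 to 13.3 and 16.1 CPM (1.66 ± 0.15, adjusted p = 1.2e-06) and Ifi203 from 2.93 and 2.63 to 7.56 and 7.70 CPM (1.46 ± 0.19, adjusted p = 2.9e-05), both named after their values were seen, while Ifi202b fell, by 2.55 on the log2 scale. Members of this family are close copies of each other, so their separate values depend on a counting step that no source used here describes.

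Rsad2 and Cmpk2, which stand next to each other in opposite directions on chromosome 12 (26442746 to 26479837), both rose. Rsad2 encodes viperin, which makes a chain-terminating nucleotide, and Cmpk2 a nucleotide kinase that supplies its substrate. Counts of Cmpk2 were 21 and 12 under DMSO against 142 and 159 under treatment (0.676 and 0.380 against 3.14 and 3.76 CPM), a log2 fold change of 2.70 ± 0.36 (adjusted p = 3.7e-05). Rsad2 was counted 7 times in each DMSO library against 41 and 50 times (2.21 ± 0.56, adjusted p = 0.00474). Both genes had separate groups on few counts.

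In the ADP-ribosylation group, Parp9 and its partner ligase Dtx3l rose together with Parp14, their neighbour on chromosome 16 (35832874 to 35972605). Parp9 went from 11.2 and 11.3 to 18.2 and 18.6 CPM (log2 fold change 0.71 ± 0.11), Dtx3l from 9.26 and 9.63 to 20.0 and 18 CPM (1.01 ± 0.12) and Parp14 from 13.0 and 11.1 to 27.0 and 26 CPM (1.14 ± 0.12). Adjusted p-values were 0.000159, 1.4e-05 and 4.6e-06. Parp9 and Dtx3l overlap each other over 9.40% and 8% of their exons, so part of their reads could be exchanged. Parp12, on chromosome 6, measured 53.1 and 63.8 against 59.8 and 60.9 CPM, and its difference of 0.05 ± 0.09 was not called (adjusted p = 0.683). It was 0.43 with library size only (adjusted p = 0.00110).

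The Schlafen genes, a family of growth and RNA regulators on chromosome 11 (82951349 to 83070678), were likewise split, with 2 of 3 called. Slfn5 went from 6.88 and 8.75 to 16.1 and 16.9 CPM (log2 fold change 1.08 ± 0.14, adjusted p = 3.2e-05) and Slfn8 from 4.50 and 3.83 to 8.20 and 8.89 CPM (1.03 ± 0.18). Slfn2, which keeps immune cells quiescent and had the highest level per length of the 40 genes in DMSO, measured 185 and 187 against 203 and 204 CPM (0.13 ± 0.06, adjusted p = 0.0779). It was called higher with upper-quartile scaling (0.19, adjusted p = 0.0139) and with library size only (0.51, adjusted p = 1.1e-05). Samd9l, a translation inhibitor, went from 18.8 and 16.9 to 24.0 and 23.7 CPM (0.42 ± 0.11, adjusted p = 0.00714), a call that ended without DMSO replicate 2 (0.35, adjusted p = 0.0525).

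All 4 genes of the nuclear and TRIM group rose. Sp100, of the PML nuclear bodies, went from 9.14 and 6.78 to 27.8 and 30.2 CPM (log2 fold change 1.87 ± 0.15, adjusted p = 2.7e-07). Xaf1, which promotes cell death, went from 3.28 and 4.44 to 7.74 and 11.3 CPM (1.3 ± 0.22, adjusted p = 0.000248). Trim30a and Ifi35 rose by 0.73 ± 0.11 and 0.70 ± 0.10, and none of the 4 had overlapping groups. Trim30a is a regulator of NF-kB signalling.

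The membrane and secreted proteins held the most abundant rises. Ly6e (chromosome 15, 74955051 to 74959905), a lipid-anchored surface protein known to block entry of coronaviruses, went from 190 and 201 to 1055 and 1291 CPM, a log2 fold change of 2.58 ± 0.09, or 6.00-fold (adjusted p = 3.5e-10). Lgals3bp, a secreted glycoprotein that binds galectins, went from 125 and 139 to 284 and 335 CPM (1.23 ± 0.08, adjusted p = 7.3e-08). Bst2, or tetherin, which holds budding virus on the cell surface, went from 54.8 and 59.7 to 94.8 and 106 CPM (0.81 ± 0.08, adjusted p = 1.7e-06). Rtp4, a chaperone of receptors, went from 4.95 and 3.55 to 13.5 and 19.1 CPM (1.93 ± 0.20). Counts per library ran from 112 for Rtp4 to 54645 for Ly6e, and the groups were far apart for all 4.

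No interferon RNA accompanied these rises at a level that could be tested. Of 21 interferon genes in the table, 20 had no count in any library, Ifnb1 and Ifng among them, and Ifna7 had a single count in DMSO replicate 1. A count of 0 allows up to 3 counts, or 0.0965 and 0.0951 CPM in the DMSO libraries and 0.0663 and 0.0709 CPM in the BMS-582949 libraries, and these limits cover counting error only. RNA was taken once, at day 4, and secreted protein was not measured.

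Genes of reception and signalling had a smaller median change than the effectors, a difference that was not tested. Of 11 tested genes among receptors, Janus kinases and ISGF3, 7 rose and 2 fell, with a median log2 fold change of 0.30. Ifnar1, a chain of the type I receptor, went from 89.9 and 94.8 to 156 and 148 CPM (0.72 ± 0.06) and Ifnar2 rose by 0.30. Ifngr1, a chain of the interferon-γ receptor, rose by 1.33, whereas its partner Ifngr2 fell by 0.40 and Il10rb, a chain shared by receptors for interferon-λ and IL-10, fell by 0.44. Neither fall was called with library size only (-0.02 and -0.06). Of the genes of ISGF3, Irf9 went from 16.3 and 18.4 to 35.2 and 40.3 CPM (1.12 ± 0.12) and Stat2 from 4.76 and 6.12 to 10.4 and 11.2 CPM (0.99 ± 0.17). Jak2 rose by 0.84, while Jak1 (0.14) and Tyk2 (-0.07) were not called.

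Of 10 other IRF genes and IRF partners tested, 6 rose and none was called lower. Beside Irf7, Irf8 rose by 1.17, Irf5 by 1.00, Irf2 by 0.50, Irf1 by 0.40 and the corepressor gene Irf2bp2 by 0.29, and Irf3 measured 60.0 and 59.3 against 49.9 and 55.3 CPM (-0.18, adjusted p = 0.0598). With DESeq2 size factors 2 were called lower, among them Irf3 (-0.21, adjusted p = 0.0354). A filter of at least 1 CPM in 2 libraries also gave 2 called lower, and the DESeq2 test and limma-voom gave 1 each. The call of Irf1 ended without DMSO replicate 1 (0.30, adjusted p = 0.0620). Upstream sensing genes rose in 13 of 16 cases and fell in 2, with Tlr9 (2.62), Ikbke (2.05) and Tlr7 (1.88) as the largest rises. The falls were Ticam1, the adaptor of TLR3 and TLR4, from 39.9 and 43.3 to 15.9 and 16.4 CPM (-1.36 ± 0.11), and Mavs (-0.26), the adaptor of the RIG-I-like receptors, whose call ended without DMSO replicate 2 (-0.18, adjusted p = 0.147) and with library size only. Of 9 tested negative regulators of the pathway 5 rose, among them Socs3 (1.61), Socs1 (1.14) and Pias3 (0.55), and the phosphatase gene Ptpn1 fell by 1.34. When replicate 2 of either group was left out only 3 of them rose, and Socs1 was not called in either fit (adjusted p = 0.0849 and 0.0909).

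**Figure D5:**
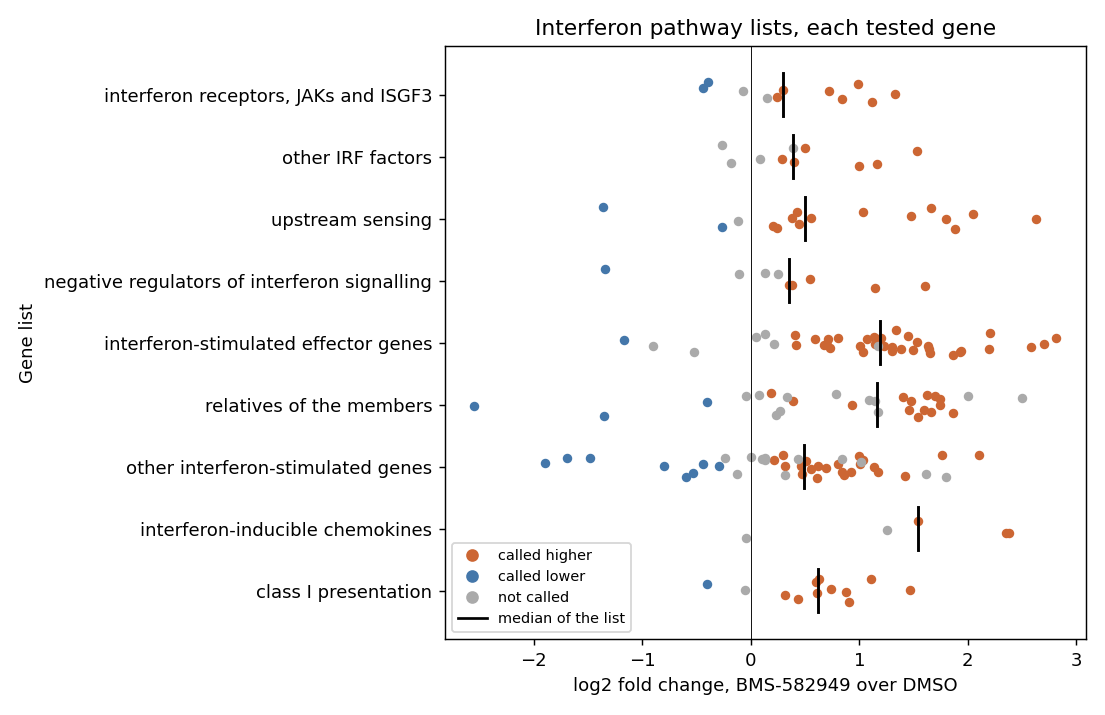
Log2 fold change, BMS-582949 over DMSO, of each tested gene in the effector set and in 8 other lists of the interferon pathway, coloured by call, with each list's median as a black line. The effector genes have a median of 1.19, the receptor and ISGF3 list 0.30 and the other interferon-stimulated genes 0.49, with 8 called falls in the last.

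Other genes of the same families and of the same response were split. Of 28 tested relatives of the effector genes 14 rose and 3 fell, with a median of 1.16. Sp110 rose by 1.86, Oas1c by 1.74 and Slfn9 by 1.69. The PYHIN gene Ifi202b fell from 9.75 and 6.43 to 1.52 and 1.23 CPM (-2.55 ± 0.26, adjusted p = 2.9e-06), and Ly6c1 and Parp11 fell by 1.35 and 0.41. The fall of Parp11 was not called in 5 refits, with values from -0.44 with the DESeq2 test to -0.02 with library size only. Scaled that way, 23 of the 28 relatives rose. Of 42 other interferon-stimulated genes 22 rose and 8 fell, with a median of 0.49, and 27 rose and 5 fell with library size only. Phf11d rose by 2.10, Phf11b by 1.76 and Lgals9 by 1.42. Mov10, an RNA helicase, went from 78.7 and 87.8 to 24.8 and 26.7 CPM (-1.69 ± 0.08), Ifitm2, of the membrane proteins that block virus entry, from 358 and 364 to 137 and 122 CPM (-1.48 ± 0.07), and Trafd1 fell by 0.80.

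Among interferon-inducible chemokines, 3 of 5 rose, with Ccl2 at 2.38 and Cxcl10 at 2.35. On all 4 libraries only 2 of the 5 rose with the DESeq2 test, with limma-voom or with the replicate block. With a filter of at least 1 CPM in 2 libraries, 3 were tested and 2 rose. Fewer also rose when either DMSO library or BMS-582949 replicate 2 was left out. Of 12 genes of class I antigen presentation 10 rose and 1 fell, with a median of 0.62. Psmb8 and Psmb9, subunits of the immunoproteasome, rose by 1.46 and 1.11 and their regulator Nlrc5 by 0.91, and Tap2 changed by -0.40, a call that ended with library size only (-0.02).

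Several defining markers of other cells that the cultures could hold had no count in any library. Of 8 markers of plasmacytoid dendritic cells, Siglech, Klk1 and Cd209d had no count, 2 were tested and 1 of them rose (Runx2, which other cells also express), and the summed level was 3.67 and 5.26 CPM under DMSO against 6.34 and 7 CPM under treatment. Of 9 T and NK cell markers, Cd3e, Cd3g, Ncr1 and Cd8a had no count, 1 was tested and was not called, and the sum was 1.71 and 2.82 against 2.76 and 3.21 CPM. Of 6 conventional dendritic cell markers 2 were tested and 1 fell, with sums of 27.6 and 33.9 against 16.9 CPM in each treated library. B cell markers summed to at most 1.80 CPM in any library, and 4 of 5 mast cell markers were at 0. Of 9 neutrophil markers Ly6g was at 0, 7 were tested and 3 fell (Camp, Ltf and Ngp), and the sum was 28.0 and 27.7 against 17.6 and 20.9 CPM. The calls of Runx2, Camp and Ltf each ended in at least 1 fit without a library, and that of Ngp ended with library size only (-0.30). Stromal markers summed to 948 and 880 against 633 and 638 CPM, with 4 of 6 tested lower. With library size only 2 of the 6 were lower, and their median log2 fold change went from -0.54 to -0.16. Macrophage genes that rose beside the effectors included Cx3cr1, from 1.16 and 1.52 to 33.5 and 31.3 CPM, and Adgre1, from 171 and 179 to 402 and 398 CPM, and those that fell were Csf1r and Cd68. The part of a changed mix of cells in the rise of the effector genes was not tested.

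Effector genes with and without the ISRE letters were both mostly higher. Of the 17 genes with a match 15 were called higher and none lower (median log2 fold change 1.34). Gbp7 (-0.52) and Ifi205 (-0.91) have a match and were not called. Of the 14 with a window but no match 11 were called higher and Oasl1 lower (median 0.85). Ifit3 and Rsad2, with a match, and Ifit2, without one, passed the low-count filter only through the BMS-582949 libraries. The difference between genes with and without a match was not tested. Of 9900 tested genes with a window, 382 held the letters, and 41.9% of these were called higher, against 31% of those without. Called falls made up 24.9% and 30.2%. The effector genes with a window are themselves counted in these shares. The gamma-activated site TTCNNNGAA stood in 22.6% of the 31 genes' windows (9.55% of all genes), the ETS-IRF composite (GGAA, any 2 bases, GAAA) in 12.9% (3.16%) and the AP-1 site TGANTCA in 22.6% (8.97%). Of these matches, only a gamma-activated site in Bst2 overlapped an ISRE match. All were searched on both strands. They stood in 7, 4 and 7 of the 31 genes. Among tested genes with a window, 31.9%, 33.8% and 30% of those with these motifs were called higher. Of those without, 31.4%, 31.4% and 31.6% were. The shares of windows describe letters in 300 bases, and no binding was measured.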

How the data were processed

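The tools named in the submitters' processing notes are HISAT2 2.0.4, Trimmomatic 0.36 and DESeq2 1.30.1, with build GRCm38. Which step each served, what counted the reads, on which annotation and whether by strand is not given in the sources used here. Values in the deposited table are raw counts for each gene model (whole numbers, unequal column sums), and columns were matched to samples by name. Symbols, positions and union exon lengths came from GENCODE M21 (GRCm38), which named 22022 of 23390 models, and 1354 others are the authors' NewGene models. Promoters are from RefSeq.

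The test was edgeR 4.0.16 in R 4.3.3: filterByExpr (minimum count 10), TMM, glmQLFit and glmQLFTest without covariates on 2 residual degrees of freedom, with Benjamini-Hochberg adjustment over 13214 genes. The standard error is the absolute log2 fold change divided by the square root of F. The fit was tested on simulated data drawn from these libraries. The share of false calls there was above the nominal rate, so calls near the threshold carry more error than their adjusted p states. The simulation changed far fewer genes than were called here, so it does not give the size of this excess for these data. Alternatives used DESeq2 1.42.0, limma 3.58.1, other scalings, filters and thresholds, the replicate number as a block, and fits without 1 library. For genes and lists outside the effector set these were added after seeing the data.

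Libraries of a group were not duplicates: their counts differed by more than sampling (DMSO chi-square per degree of freedom 9.62, BMS-582949 13.7). The effector genes and lists were chosen with earlier results of these data known. Named genes are all 43 of the set, any interferon, receptor, JAK, ISGF3 or IRF gene (1 is not reported here), and from other lists up to 3 called genes per direction by size of change with a mean of at least 1 CPM, with highest markers. Exceptions are marked, except Adgre1, Oas1g, Ifit3b, Ifit1bl1, Ifit1bl2, Camp, Ltf and Ngp, named for their relation to a result after values were seen.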

Additional observations from a re-analysis of the deposited data

How the results depend on the processing

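All 34 called effector genes kept their direction and call in the 8 refits on all 4 libraries. The 4 fits without 1 library take the spread from the other group's pair, so their calls compare loosely with the full fit: in these 29 kept their call, and Eif2ak2, Herc6, Ifit1, Samd9l and Usp18 kept their direction and lost it in at least 1. Leaving out 1 library gave the effector genes a median log2 fold change of 1.04 to 1.3. With library size only, 6738 of all tested genes were called higher and 2240 lower, and the median of the effector genes was 1.56; relative to the median of all genes under the same scaling (0.41) the effector genes stayed above. Requiring at least a 2-fold change left 1314 of all genes higher and 1499 lower. Directions turned for Gbp7 (-2.68 to 1.89 when 1 library was left out), for Parp12 (-0.080 to 0.19, not called, the low value without DMSO replicate 1), and with library size only for Tyk2 (0.31), Irf3 (0.20) and Mavs (0.12). Equal replicate numbers are not said to mark a shared animal or day, and deviations of same-numbered libraries correlated at -0.0776. With the replicate block, 33 effector genes were called higher and 1 lower, as without it. Depth limits the IFIT genes, Rsad2, Cmpk2 and Zbp1, which had at most 21 counts in each DMSO library.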
